A study of Mus musculus with 12 samples.

Results

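The genes described here are 9 homeobox genes linked to leukemia, taken as a list of named genes. They are Hoxa3, Hoxa5, Hoxa7, Hoxa9 and Hoxa10 of the HOXA cluster, the cofactor genes Meis1, Pbx2 and Pbx3, and Hhex, and they make up 9 of the 51826 genes counted. RNA was sequenced from 12 mouse pre-B cell lines, B lymphocyte precursors grown from the marrow of 2 C57BL/6 mice in interleukin 7 (IL7) for 7 days. Each mouse gave 3 lines with an empty retroviral vector (EV) and 3 with the same vector carrying BCR-ABL1, a fusion tyrosine kinase of human leukemia. The study's methods give wild-type marrow donors as female, their age is not stated, and the transcript of the fusion gene itself was not analysed here. At 48 h after transduction IL7 was taken away from the BCR-ABL1 lines for 1 week, whereas EV lines stayed in IL7 and were sorted for GFP. Presence of the oncogene, absence of IL7 and selection by its withdrawal in place of GFP sorting therefore go together and cannot be told apart. Lines are named by mouse and letter, 1A to 1C and 2A to 2C, and p-values measure the spread between lines of these 2 mice. By the study's methods the triplicates came from 3 independent experiments, and the sample titles do not say whether the letters stand for them. In bulk RNA, fewer cells of a type and less RNA per cell cannot be told apart.

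Homeobox genes encode transcription factors that bind DNA through a homeodomain. HOXA proteins of the middle and posterior part of the cluster act in blood stem and progenitor cells, where HOXA9 binds DNA together with MEIS1 and with PBX proteins, which belong to the TALE class of homeodomain cofactors. The HOXA genes and MEIS1 are known for high levels in leukemias with KMT2A rearrangement and in many myeloid leukemias, and are turned down as blood cells mature. HHEX is a homeodomain repressor needed in early blood and lymphoid development. The comparison asked whether these genes differ between pre-B cells with BCR-ABL1 and their EV counterparts.

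Promoter sequence is shown first for genes at both ends of the range of levels, with near-silent Hoxa5, Hoxa9 and Meis1 set beside Pbx2 and Hhex, which were expressed in every line. RefSeq start sites (GRCm38.p6) were found for 8 of the 9 genes, and Pbx3 is named only. The stretches are the 200 bases from 250 to 51 bases before the start, 5′ to 3′ on the strand of the gene, and capitals mark each CpG dinucleotide. They lie at chr6:52204638-52204837 (minus strand) for Hoxa5, chr6:52227421-52227620 (minus) for Hoxa9, chr11:19019020-19019219 (minus) for Meis1, chr17:34592009-34592208 (plus) for Pbx2 and chr19:37434591-37434790 (plus) for Hhex. By GENCODE M21 the Hoxa9 and Pbx2 stretches are intronic in longer transcripts of the same gene, and that of Hoxa5 is intronic in Hoxa3 and its neighbours. That of Meis1 lies outside genes, and 66 bases of that of Hhex are exonic in Gm38345.
Hoxa5: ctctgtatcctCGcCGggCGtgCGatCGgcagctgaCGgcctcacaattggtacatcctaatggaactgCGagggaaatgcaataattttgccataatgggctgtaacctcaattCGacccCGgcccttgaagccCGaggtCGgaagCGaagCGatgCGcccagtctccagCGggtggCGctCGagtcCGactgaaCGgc
Hoxa9: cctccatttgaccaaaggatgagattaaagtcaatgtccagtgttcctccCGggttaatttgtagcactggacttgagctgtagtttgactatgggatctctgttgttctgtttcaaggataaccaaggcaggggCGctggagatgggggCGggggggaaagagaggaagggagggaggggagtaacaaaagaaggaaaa
Meis1: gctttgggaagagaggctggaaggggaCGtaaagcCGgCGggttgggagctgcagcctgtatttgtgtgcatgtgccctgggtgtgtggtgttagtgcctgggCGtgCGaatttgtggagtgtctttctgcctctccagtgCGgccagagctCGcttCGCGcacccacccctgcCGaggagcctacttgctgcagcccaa
Pbx2: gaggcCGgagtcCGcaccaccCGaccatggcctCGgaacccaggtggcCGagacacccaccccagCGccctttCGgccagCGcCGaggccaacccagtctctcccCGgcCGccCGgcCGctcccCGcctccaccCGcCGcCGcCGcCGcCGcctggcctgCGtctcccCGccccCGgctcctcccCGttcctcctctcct
Hhex: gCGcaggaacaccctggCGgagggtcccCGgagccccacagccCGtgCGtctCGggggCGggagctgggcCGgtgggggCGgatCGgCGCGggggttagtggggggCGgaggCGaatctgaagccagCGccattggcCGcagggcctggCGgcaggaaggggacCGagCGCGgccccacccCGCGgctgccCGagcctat
Over the full window of 300 bases (250 before and 50 after the start), Hhex held 37 CpG and had a GC content of 75.7%, and Pbx2 held 29 CpG at 76.0% GC. Hoxa5 also held 29 CpG, at 61.7% GC, whereas Meis1 held 15 and Hoxa9 held 4. The median over all 32851 promoters was 7 CpG and 52.7% GC. CpG number thus did not order these genes by level, since near-silent Hoxa5 and expressed Pbx2 had the same count. The letters TGATNNAT, a PBX-HOX motif, were in 0 of the 9 windows of these 8 genes on either strand (Hoxa10 has 2 starts), against 8.85% of all promoters. TGACAG, a MEIS motif, was in 1 window, that of Hoxa3, against 19.2% of all promoters. These are matches of letters only.

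Total counts were 34791011 to 64547911 in EV lines and 45230023 to 66011225 in BCR-ABL1 lines. Levels are given as CPM, counts scaled to the library size after TMM normalization, and 3 counts in a line, which is 0.0433 to 0.0920 CPM, were taken as the floor. The lines carried B lineage markers, which summed to 2529 to 4640 CPM without and 2755 to 3512 CPM with BCR-ABL1. None of 10 such genes was called over all lines (edgeR, also 0 by unadjusted p under 0.05 and by DESeq2). All 12 myeloid markers were below the gene filter, their sums being 0.261 to 2.02 CPM without and 0.540 to 0.982 CPM with BCR-ABL1. Mast cell and stromal markers were untested as well (0 of 7 and 0 of 8), and 1 of 7 T and NK genes (Cd3d) and 1 of 7 erythroid and megakaryocyte genes (Itga2b) were called lower, the latter not by DESeq2 (FDR = 0.287) or the likelihood ratio fit. EV line 2A stood apart: of 7320 protein-coding genes that no other line had at more than 3 counts, 32.5% were above 3 counts in it. The same share was 2.1% for EV 2B and at most 0.483% for the other 10 lines, although EV 2A had the lowest total count.

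Of the 9 genes, 3 passed the filter on low counts (Pbx2, Pbx3 and Hhex), and the 5 HOXA genes and Meis1 did not. Genes that passed, 15038 in all, were tested in edgeR with glmTreat for a change beyond 1.5-fold (quasi-likelihood), and a gene is called when its Benjamini-Hochberg adjusted p (FDR) is under 0.05. BCR-ABL1 lines were called different for 0 of these 3 genes, against 12.5% of all tested genes (5.99% higher and 6.49% lower). At an unadjusted p under 0.05 the count was also 0, and DESeq2 and the likelihood ratio fit called 0. The plot of all levels by line shows the gap between the near-silent genes and the rest.

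**Figure D1:**
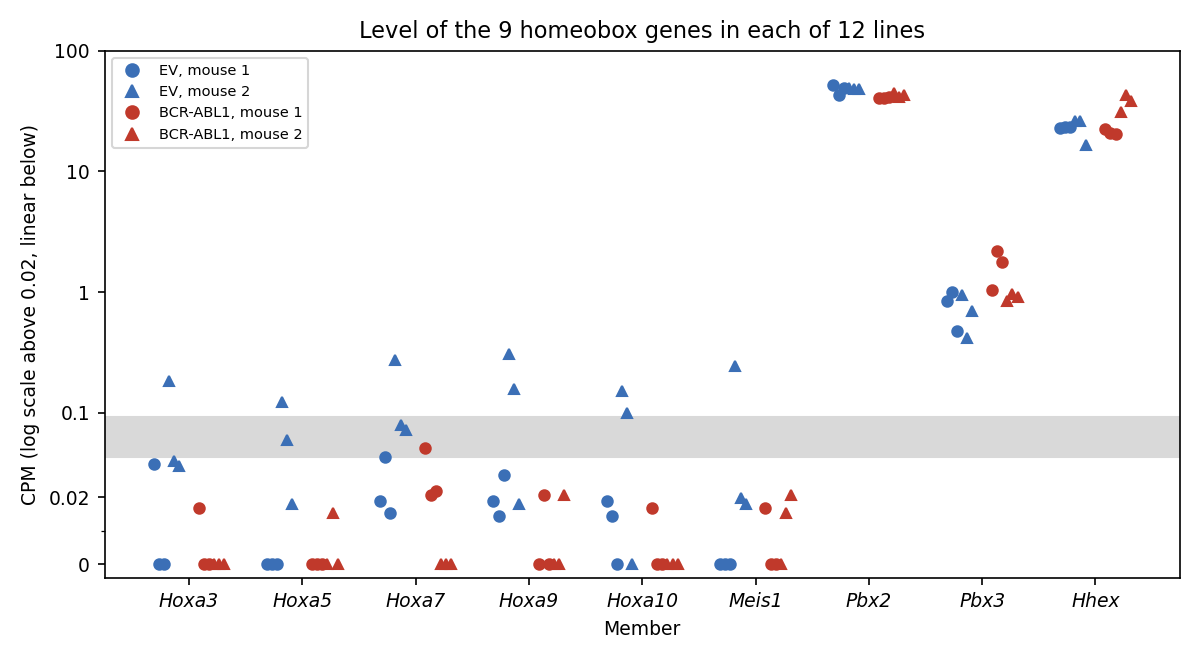
Level of each of the 9 genes in CPM on the vertical axis (log scale above 0.02, linear below) for 6 EV and 6 BCR-ABL1 lines, with the mouse given by the symbol; the grey band is the level of 3 counts, 0.0433 to 0.0920 CPM. The 5 HOXA genes and Meis1 stay at or below 0.307 CPM, while Pbx2 lies between 40.3 and 52.4 CPM in every line.

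The HOXA genes were at or near the floor in all lines. Hoxa9, the HOXA gene most often linked to acute leukemia, ranged from 0.0144 to 0.307 CPM (median 0.0248) in EV lines and from 0 to 0.0209 CPM (median 0) in BCR-ABL1 lines. In counts this was 10 in EV 2A and 8 in EV 2B, 1 or 2 in the other EV lines, and 0 or 1 in BCR-ABL1 lines. The groups overlapped, and the high values belonged to EV lines 2A and 2B. Hoxa7, its neighbour in the cluster, ranged from 0.0154 to 0.276 CPM (median 0.0577) in EV lines and from 0 to 0.0509 CPM (median 0.0104) in BCR-ABL1 lines. It had 9 counts in EV 2A, 4 each in EV 2B and EV 2C, 1 to 3 in the EV lines of mouse 1, and 3 at most in any BCR-ABL1 line. Hoxa10, which acts in myeloid and lymphoid progenitors, had 5 counts each in EV 2A and EV 2B and at most 1 in any other line. Hoxa3 reached 6 counts and Hoxa5 4 counts, both in EV 2A, and neither exceeded 1 in a BCR-ABL1 line. Summed over 6 lines, the EV and BCR-ABL1 counts were 12 and 1 for Hoxa3, 8 and 1 for Hoxa5, 22 and 5 for Hoxa7, 23 and 2 for Hoxa9, and 12 and 1 for Hoxa10. Without EV 2A the EV sums were 6, 4, 13, 13 and 7.

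Meis1, the partner of HOXA9 on DNA, lies on chromosome 11 from 18879817 to 19018985 on the minus strand (ENSMUSG00000020160). It had 8 counts in EV 2A and 0 or 1 in each of the other 11 lines. Its level was 0 to 0.245 CPM (median 0.00902) in EV lines and 0 to 0.0208 CPM (median 0.00760) in BCR-ABL1 lines. Only EV 2A was above the floor, and without it the EV sum was 2 counts against 3 in BCR-ABL1 lines. The 5 HOXA genes and Meis1 together had 42 counts in EV 2A, 23 in EV 2B, 9 in EV 2C, 3 to 5 in the EV lines of mouse 1 and 0 to 6 in BCR-ABL1 lines. All 6 were above 3 counts in EV 2A, the line in which 32.5% of otherwise silent coding genes were too. The source of the low counts in EV 2A and their part in the EV values were not tested. A fold change is not given for genes so near the floor. With no gene filter (40750 genes) edgeR called 0 of the 9 genes, the lowest FDR being 0.137 for Hoxa9, and 3 had an unadjusted p under 0.05. Without EV 2A as well, 0 were called, 1 had an unadjusted p under 0.05, and the lowest FDR was 0.235. No difference in these genes was detected at these counts.

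**Figure D2:**
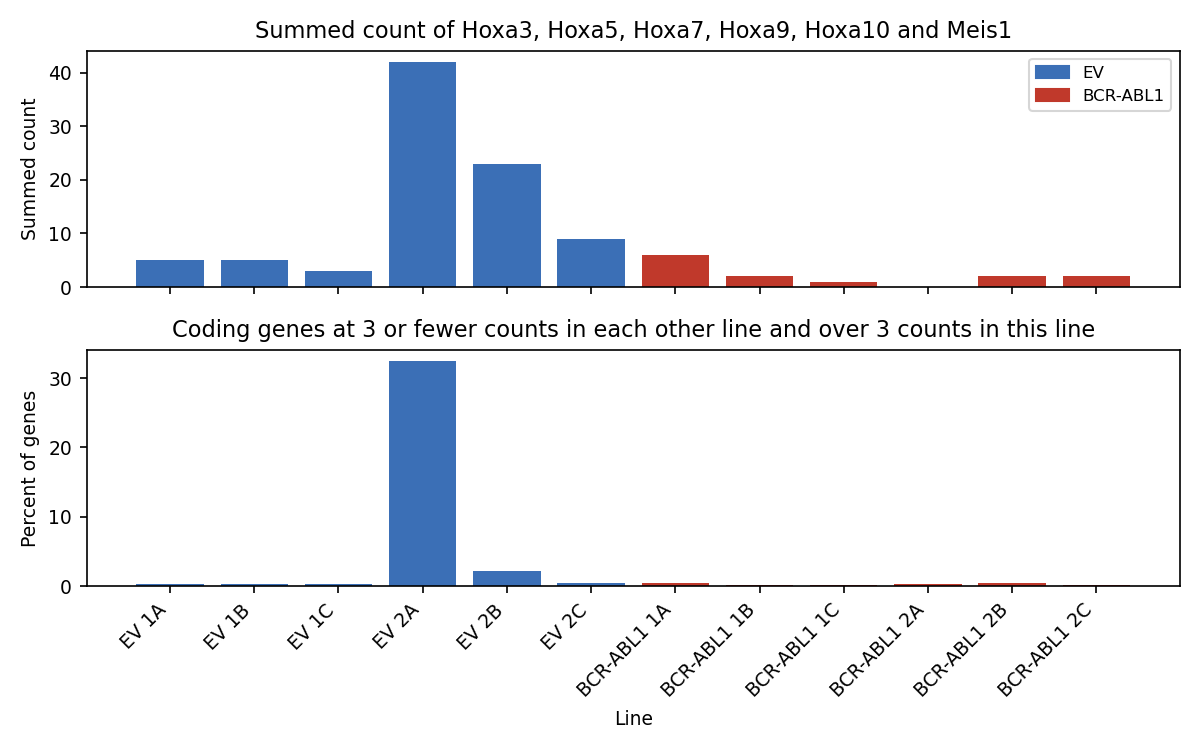
Upper panel: summed count of Hoxa3, Hoxa5, Hoxa7, Hoxa9, Hoxa10 and Meis1 in each line; lower panel: percent of protein-coding genes at 3 or fewer counts in each of the other 11 lines that exceed 3 counts in the line shown. Both bars are highest for EV 2A (42 counts and 32.5%), followed by EV 2B (23 counts and 2.1%).

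On chromosome 6 of GRCm38 the 5 genes lie on the minus strand, Hoxa3 (ENSMUSG00000079560) from 52169062 to 52213336, Hoxa5 (ENSMUSG00000038253) from 52201754 to 52204587, Hoxa7 (ENSMUSG00000038236) from 52214491 to 52221854, Hoxa9 (ENSMUSG00000038227) from 52223100 to 52231089 and Hoxa10 (ENSMUSG00000000938) from 52231197 to 52240854. Of the exonic bases of Hoxa3, 25.4% are also exonic in genes on the other strand, and of those of Hoxa7 20.4%, in the antisense gene Hoxaas3. Since the strand setting of the counting is not stated, reads of such pairs cannot be told apart. The other 6 HOXA genes were also untested, with at most 8 counts (Hoxa11 in EV 2A), and without EV 2A none of them exceeded 3 counts. The noncoding RNAs Hotairm1 and Hottip had at most 1 and 2 counts. The cluster was flanked by expressed genes, named here after their values were seen: Skap2, an adaptor gene, was at 40.6 to 79.3 CPM without and 34.2 to 40.9 CPM with BCR-ABL1 (FDR = 0.172 by edgeR), and Hibadh, a gene of valine breakdown, at 79.0 to 112 CPM and 121 to 133 CPM (FDR = 1).

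The HOXC and HOXD clusters were as low as HOXA, with 0 of 9 genes tested in each. HOXB differed in that 4 of its 10 genes passed the filter, and these are named after their values were seen. Hoxb4, linked to self-renewal of blood stem cells, was at 2.05 to 4.86 CPM without and 1.43 to 4.18 CPM with BCR-ABL1, a log2 difference of -0.33 ± 0.36 (SE, edgeR FDR = 1). None of the 4 was called over all lines (0 also by unadjusted p under 0.05 and by DESeq2). Hoxb3, Hoxb5 and Hoxb6, however, changed differently in mouse 1 and mouse 2 (interaction FDR = 0.00661, 0.00169 and 0.000841 by edgeR). Of all tested genes 16.9% passed this test. Hoxb3 and Hoxb5 were low, with at most 27 and 32 counts in a line. How these interactions depend on single lines was not tested. For Hoxb6 the lines of mouse 1 had 0.303 to 0.584 CPM without and 2.11 to 2.36 CPM with BCR-ABL1. In mouse 2 the order was turned, with 0.491 to 1.53 CPM without and 0.366 to 0.532 CPM with it, and the groups met there. For the 5 HOXA genes the same comparison could not be made, since none passed the filter.

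**Figure D3:**
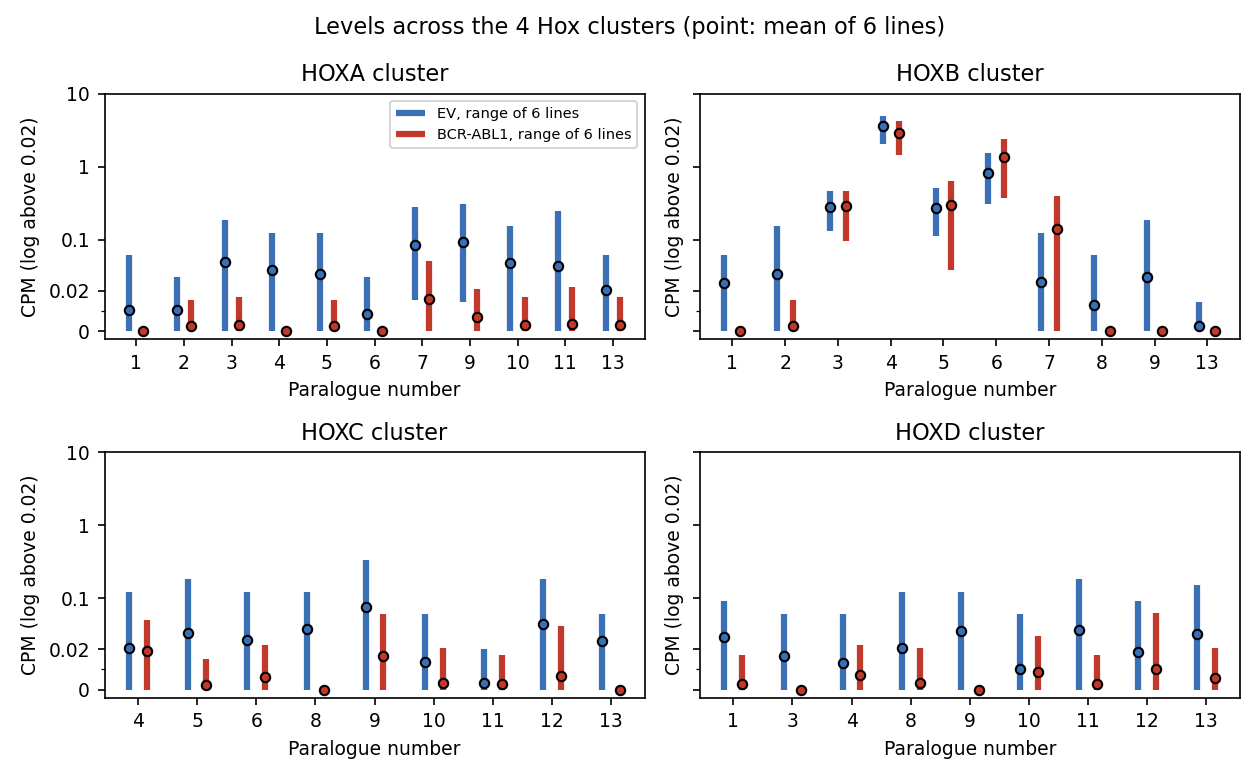
CPM (log scale above 0.02, linear below) of every gene of the 4 Hox clusters by paralogue number; bars span the lowest to highest of 6 lines and points are means, in blue for EV and red for BCR-ABL1. Apart from Hoxb3, Hoxb4, Hoxb5 and Hoxb6 the means lie at or below 0.140 CPM.

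Pbx2, which encodes a DNA-binding partner of HOX proteins, was the most abundant of the 9 genes per kilobase of exon. Its gene (ENSMUSG00000034673) lies on chromosome 17 from 34591266 to 34597400 on the plus strand, and 6.24% of its exonic bases are shared with Gpsm3. Its level was 43.0 to 52.4 CPM (median 48.7, mean 48.3 ± 3.04 SD, n = 6) in EV lines and 40.3 to 44.3 CPM (median 41.6, mean 41.8 ± 1.5 SD, n = 6) in BCR-ABL1 lines. The groups overlapped only through EV 1B, at 43.0 CPM, and BCR-ABL1 2A, at 44.3 CPM. The difference was -0.21 ± 0.04 (SE) on the log2 scale. It was larger than the spread between lines (two-sided exact permutation test, p = 0.00433, where 0.00216 is the smallest p that 6 against 6 allow; 3 genes were so tested) and far from 1.5-fold (FDR = 1 by glmTreat). Within mice it was -0.24 and -0.17. Against no change in place of 1.5-fold edgeR gave an FDR of 0.00827, a threshold that 48.5% of all tested genes passed.

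Pbx3, the PBX gene most often named with HOXA9 in leukemia, was low. The gene (ENSMUSG00000038718) lies on chromosome 2 from 34171457 to 34373142 on the minus strand. It was at 0.417 to 1.01 CPM (median 0.775, mean 0.734 ± 0.247 SD, n = 6) in EV lines and at 0.847 to 2.22 CPM (median 1.00, mean 1.30 ± 0.569 SD, n = 6) in BCR-ABL1 lines, or 21 to 70 and 44 to 106 counts. The groups overlapped, and the high values, 1.79 and 2.22 CPM, were those of BCR-ABL1 lines 1C and 1B. The log2 difference of 0.82 ± 0.31 (SE) did not pass the 1.5-fold test (edgeR FDR = 0.382), whereas the FDR against no change was 0.0453. By exact permutation p was 0.0346. It was 1.11 in mouse 1 and 0.42 in mouse 2, a difference that did not pass (interaction FDR = 0.431).

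**Figure D4:**
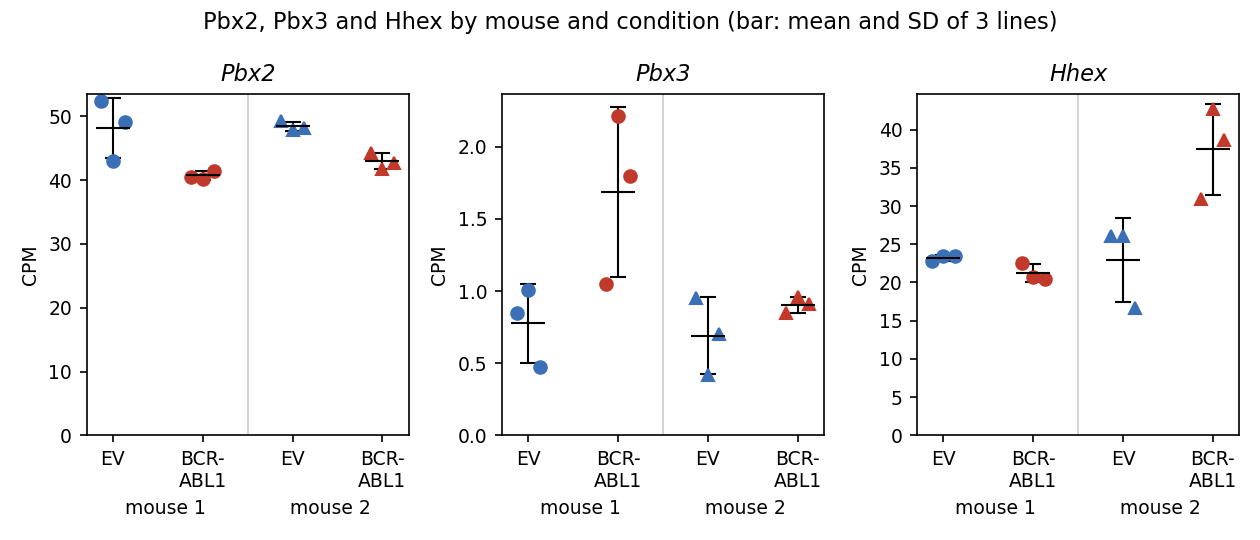
CPM of Pbx2, Pbx3 and Hhex in the 3 lines of each mouse and condition (axes start at 0), with the mean and SD of 3 lines in black. Hhex is at 30.9 to 42.7 CPM in BCR-ABL1 lines of mouse 2 and at or below 26.1 CPM in all other lines.

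Among the other 8 TALE genes 5 were tested, 1 was called higher and 1 lower. Pbx4, another PBX gene, was at 4.18 to 8.30 CPM (median 5.89) without and 1.91 to 3.74 CPM (median 2.64) with BCR-ABL1. The groups did not overlap, and the gene fell by 1.15 ± 0.23 (SE) on the log2 scale (edgeR FDR = 0.0319). The call was lost by DESeq2 (FDR = 0.154), without a gene filter (FDR = 0.0805) and when EV 1A, 1B or 1C or BCR-ABL1 2A, 2B or 2C was left out (FDR = 0.0592 to 0.0939). Tgif2, a TALE repressor gene, was at 1.01 to 8.73 CPM (median 2.49) without and 10.0 to 14.0 CPM (median 12.1) with BCR-ABL1, and the groups stood apart. It rose by 1.89 ± 0.45 (SE) on the log2 scale (edgeR FDR = 0.0267), and the call was lost when EV 1A, 1B or 1C or BCR-ABL1 2C was left out (FDR = 0.0519 to 0.0603). Without EV 2C the log2 difference was 2.48. Pknox1, which binds PBX proteins as MEIS1 does, was at 86.3 to 95.5 CPM without and 70.7 to 83.9 CPM with BCR-ABL1, a log2 difference of -0.29 ± 0.05 (SE, edgeR FDR = 1). Tgif1 and Meis3 were not called either, with log2 fold changes of 0.32 and -0.54. Meis2 and Pknox2 were among those that did not pass the filter.

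Per length, that is, CPM per kilobase of exon, Pbx2 was at 11.1 to 14.4 over the 12 lines, Hhex at 3.29 to 8.44, Pbx3 at 0.0683 to 0.363 and each of the other 6 genes at or below 0.0960. The first 3 did not overlap in this order, whereas Pbx3 met the near-silent genes through Hoxa7 in EV 2A. Among the PBX genes on this scale, Pbx2 made up 78.7 to 86.8% of the sum in EV and 84.4 to 92.4% in BCR-ABL1 lines. The share of Pbx4 was 12.4 to 20.5% and 6.53 to 12.9%, and that of Pbx3 0.435 to 1.13% and 1.05 to 2.77%.

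For Hhex, the homeodomain repressor, the difference between conditions was not alike in the mice. The gene (ENSMUSG00000024986) lies on chromosome 19 from 37434810 to 37440731 on the plus strand and shares no exonic base with another gene. EV lines had 16.6 to 26.1 CPM (median 23.5, mean 23.1 ± 3.47 SD, n = 6) and BCR-ABL1 lines 20.4 to 42.7 CPM (median 26.7, mean 29.3 ± 9.67 SD, n = 6), and the groups overlapped. In mouse 1 the EV lines were at 22.8, 23.5 and 23.4 CPM and the BCR-ABL1 lines at 22.6, 20.7 and 20.4 CPM. In mouse 2 the EV lines were at 26.1, 26.1 and 16.6 CPM and the BCR-ABL1 lines at 30.9, 42.7 and 38.7 CPM. Every BCR-ABL1 line was thus below the EV lines of its mouse in mouse 1 and above them in mouse 2.

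Over all lines Hhex differed by 0.34 ± 0.21 (SE) on the log2 scale (edgeR FDR = 1, exact permutation p = 0.195). It was -0.13 in mouse 1 and 0.71 in mouse 2, neither of which passed the 1.5-fold test (FDR = 1 and 0.370). The difference of 0.84 on the log2 scale passed edgeR's test of the interaction (FDR = 0.0311). Of the 3 tested genes among the 9, Hhex alone did so, against 16.9% of all tested genes. The call was lost in 7 of the 12 fits that left out 1 line, namely EV 1B, EV 1C and BCR-ABL1 1A, 1B, 1C, 2B and 2C (FDR = 0.0511 to 0.0845), with the difference between 0.65 and 0.96 throughout. EV 2C, at 16.6 CPM, was the low line of its group, and without it the call remained. Summed B lineage markers were 3406 to 3512 CPM in mouse 1 and 2755 to 2978 CPM in mouse 2 with BCR-ABL1, and 2599 to 2805 and 2529 to 4640 CPM without it. Of these 10 markers 2 also passed the interaction test, Vpreb1 and Igll1, named after their values were seen. Their differences were -1.96 and -1.72 on the log2 scale (edgeR FDR = 0.000412 and 0.00577). Stem and progenitor markers summed to 12.3 to 19.2 CPM in mouse 1 and 4.52 to 5.64 CPM in mouse 2 with BCR-ABL1. In EV lines they summed to 0.939 to 2.94 CPM. Most of the sum with BCR-ABL1 was Ly6a, which was called higher (0.123 to 0.577 CPM without and 3.92 to 18.7 CPM with BCR-ABL1). Slamf1, the other tested marker of this list, went the other way, at 0.613 to 1.05 CPM without and 0.153 to 0.558 CPM with BCR-ABL1. Its edgeR FDR was 0.0583, and 0.0469 with mouse as block. Kit and Cd34 were at or below 0.307 CPM. The part of these markers in the Hhex result was not tested.

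Between the mice 0 of the 3 tested genes among the 9 were called in EV lines, against 10.3% of all tested genes (edgeR, unadjusted p under 0.05 for 0). In BCR-ABL1 lines 0 were called, against 2.65%, and 1 had an unadjusted p under 0.05. Hhex differed between the mice by 0.82 in BCR-ABL1 lines (FDR = 0.508) and by -0.02 in EV lines (FDR = 1) on the log2 scale. Of the same 3 genes 0 were called in mouse 1, where 19.3% of all tested genes were, and 0 in mouse 2, where 12.9% were. At an unadjusted p under 0.05 these counts were 1 and 0.

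The genes closest to each tested gene over the 12 lines were found by the root mean square difference of log2 CPM centred on the mean of each gene. For Pbx2 they were Rxrb (0.0330) and Copa (0.0496), against a median of 0.303 over all genes compared. For Hhex they were Hmga1, a chromatin gene (0.163), and Gm43817 (0.208), against 0.474. For Pbx3 the differences were larger, 0.334 for Map9 and 0.365 for Pcyox1l, against 0.671. Of these 6 genes Pcyox1l was called (log2 difference 1.15, edgeR FDR = 0.0215), a call lost without BCR-ABL1 line 1B (FDR = 0.0551), by DESeq2 (FDR = 0.0576) and with the lines of mouse 2 alone (FDR = 0.431).

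Genes linked to these factors in the literature were called in both directions. Their lists were compared by counts only, and the median log2 fold change of all tested genes was -0.02. Of all tested genes 5.99% were called higher and 6.49% lower. All lists were chosen with earlier results of these data known, so no trait of a list is read from its counts or median. Of 15 regulators of HOXA transcription, such as the KMT2A complex, 12 were tested and 0 called (0 also by unadjusted p under 0.05 and by DESeq2), with a median of -0.06. Of 17 genes linked to HOXA9 or MEIS1, 13 were tested, 2 were called higher and 2 lower, with a median of -0.39. Erg, an ETS factor gene, was at 0 to 0.358 CPM without and 46.3 to 117 CPM with BCR-ABL1 (log2 difference 10.02 ± 0.56 SE, edgeR FDR = 2.27e-06). EV line 2B held 18 of its 24 EV counts, and without that line the log2 difference was 11.69, so its size is not well set. Flt3, a receptor gene of early progenitors, was at 0.159 to 0.705 CPM and 4.61 to 7.00 CPM (3.61 ± 0.32 SE, FDR = 2.86e-05). Groups did not overlap for either gene, both picked by their calls, and the high levels were in lines where Hoxa9 and Meis1 had at most 1 count. A part of Hoxa9 or Meis1 in these levels was not tested. Trib2, a pseudokinase gene, fell by 2.85 on the log2 scale (57.0 to 87.8 CPM without and 5.0 to 14.7 CPM with BCR-ABL1, edgeR FDR = 1.79e-05). Il7r, the receptor gene of the withdrawn cytokine, fell by 1.06 (235 to 401 CPM and 145 to 189 CPM, FDR = 0.00328).

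**Figure D5:**
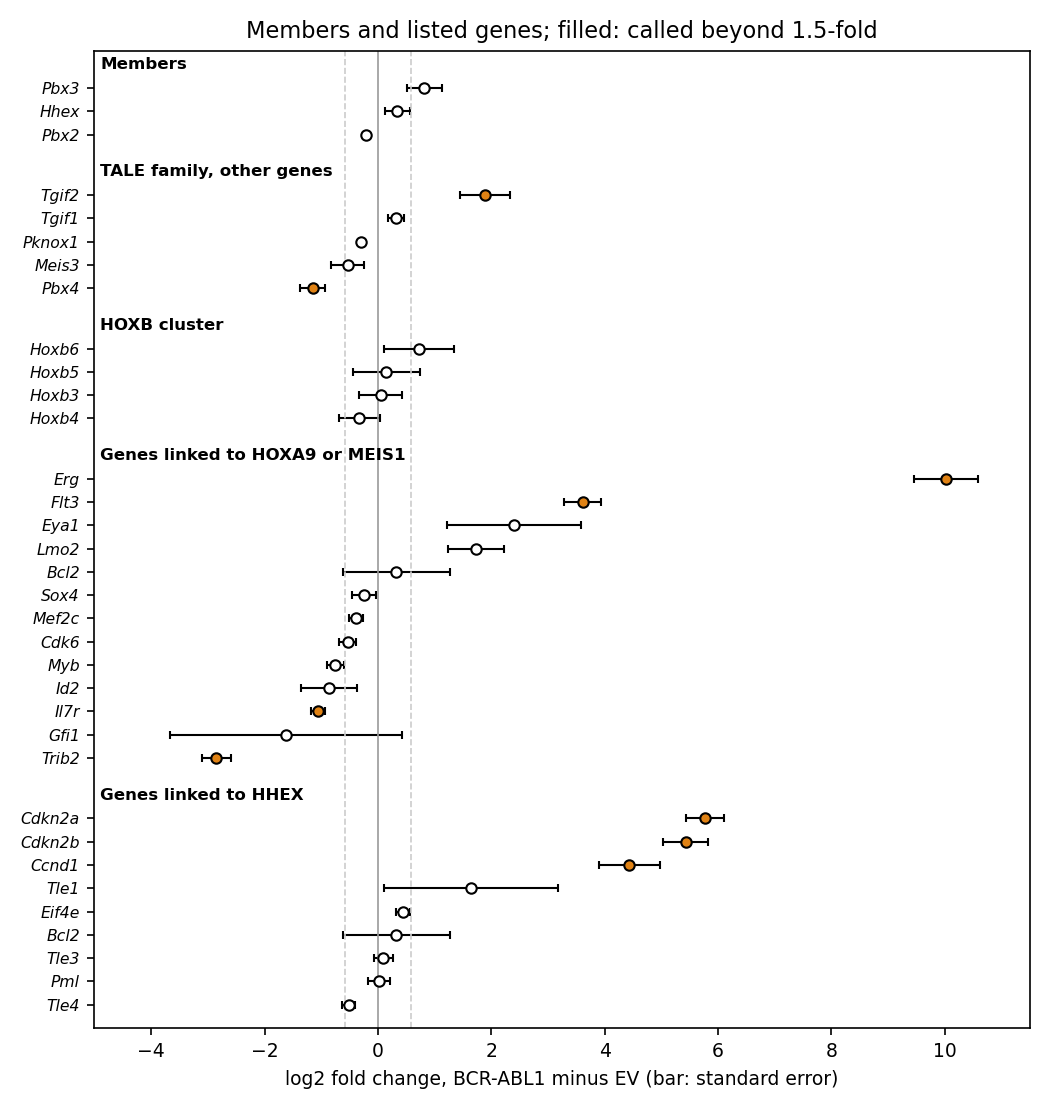
Log2 fold change of BCR-ABL1 against EV lines with its standard error for the tested genes of 5 groups; filled points were called beyond 1.5-fold (dashed lines). Pbx2, Pbx3 and Hhex lie between -0.21 and 0.82, and Erg at 10.02.

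Of 10 genes linked to HHEX, a list also chosen with earlier results known, 9 were tested, with a median of 0.45. Of these 3 were called higher and 0 lower, against 5.99% and 6.49% of all tested genes. Cdkn2a, a cell cycle inhibitor locus, was at 0.230 to 0.866 CPM without and 25.0 to 28.9 CPM with BCR-ABL1 (log2 difference 5.77 ± 0.34 SE, edgeR FDR = 2.03e-06). Cdkn2b, its neighbour, was at 0 to 0.153 CPM and 0.780 to 1.25 CPM, and the cyclin gene Ccnd1 at 0.0289 to 0.460 CPM and 0.848 to 3.72 CPM. None of the 3, which were picked by their calls, overlapped between conditions. Each was high in the BCR-ABL1 lines of both mice, whereas Hhex was higher in those of mouse 2 only. A part of Hhex in the levels of these 3 genes was not tested. Of 23 other homeobox genes of blood or leukemia 15 were tested, 3 were called higher and 1 lower, with a median of 0.01. Hopx, Satb1 and Zfhx3 rose by 4.01, 2.21 and 3.86 on the log2 scale (edgeR FDR = 0.000497, 0.00388 and 0.00566), and Zhx2, a transcriptional repressor gene, fell by 1.79 (FDR = 0.000200). Without EV 2A the log2 difference was 4.64 for Hopx and 4.65 for Zfhx3. Hopx reached 7.84 CPM, Satb1 23.5 CPM and Zfhx3 9.41 CPM in BCR-ABL1 lines. None of the 4 genes overlapped between conditions, but they were picked by their calls, which favours such a gap.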

How the data were processed

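RNA of 12 pre-B cell lines, 6 EV and 6 BCR-ABL1, was read out with a stranded kit for total RNA. The files deposited by the authors hold whole-number counts per gene for each line, without normalization and without pooling. The submitters' processing notes name FastQC 0.11.5, Trimmomatic 0.36, TopHat2 2.1.1, Bowtie2 2.3.2, featureCounts 1.5.3 and GRCm38. The annotation release, the strand setting and whether reads or read pairs were counted are not given in the sources used here. Reads that match paralogues or overlapping genes could be lost or split. Counts are not molecules, so the floor of 3 counts covers counting error only.

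Groups were taken from the sample titles. The 9 genes and all lists were chosen with earlier results of these data known. Counts were analysed in R 4.3.3 with edgeR 4.0.16 (filterByExpr, TMM, quasi-likelihood glmTreat at 1.5-fold, FDR 0.05 over 15038 genes) and DESeq2 1.42.0. Log2 CPM used a prior count of 2. Each standard error is that of the difference in group mean log2 CPM, from the variance of each group, and not from the fit. Symbols and positions came from GENCODE M21, which named 51633 of 51826 genes. The difference between mice was the interaction in a fit of 4 groups of 3 lines. The fits were tested on simulated counts. Plots used matplotlib 3.10.9 in Python 3.11.15.

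Named genes are the 9 genes, called genes of the other lists, tested HOXA and TALE genes, and for each tested gene the 2 genes closest to it whose average log2 CPM is 1 or more. Others are marked. Alternatives were RLE size factors, no filter, CPM of at least 1 in 6 lines, DESeq2, the likelihood ratio fit, testing against no change, blocking by mouse or by line pair, each mouse alone, a prior count of 0.5, and leaving out each line. No filter combined with leaving out EV 2A was added after seeing the data. Equal first digits were taken as the same mouse. Deviations from the mean of each condition were correlated between EV and BCR-ABL1 lines. Within a mouse the values were 0.0853 to 0.212 for equal letters and 0.0937 to 0.240 for other letters. Between mice they were -0.203 to -0.0636, which adds nothing, since such centring makes positive and negative values balance. Chi-square per gene between lines of one mouse and condition was 9.96 to 481, so no pair was taken as the same library.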

Additional observations from a re-analysis of the deposited data

Results flagged for a closer look

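Of 58 groups of 6 lines, for the 9 genes and the other named genes, 14 held a line far from the others. Far means a gap to the next line of over 0.625 of the range. The count is not set against chance, since a single count beside 0 in all other lines is flagged by construction. EV 2A was the high line for Hoxa3 (0.184 CPM), Hoxa7 (0.276 CPM), Meis1 (0.245 CPM), Cdkn2b (0.153 CPM), Ccnd1 (0.460 CPM) and Hopx (1.04 CPM). Each of these values was that of a low gene in the line with the most otherwise silent genes. Lone counts in BCR-ABL1 lines, with 0 in the other 5, gave Hoxa3 in 1A (0.0170 CPM), Hoxa10 in 1A (0.0170 CPM) and Hoxa5 in 2B (0.0152 CPM), each a single count and under the floor. EV 2C was low for Hhex (16.6 CPM, others 22.8 to 26.1) and Il7r (235 CPM, others 372 to 401), and high for Tgif2 (8.73 CPM, others 1.01 to 3.35). EV 2B was high for Erg (0.358 CPM), and BCR-ABL1 2A for Pknox1 (83.9 CPM, others 70.7 to 74.7).

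The change with BCR-ABL1 differed between the mice (edgeR interaction, FDR under 0.05, mouse 2 minus mouse 1 on the log2 scale) for Hhex at 0.84, Hoxb3 at -2.29, Hoxb5 at -3.79, Hoxb6 at -3.70, Tgif1 at -0.76, Erg at -4.01 and Cdkn2a at -1.60. For Erg the EV lines had 1 count each in mouse 1 and 3, 18 and 0 counts in mouse 2, so this value rests on counts near the floor and on EV 2B, and no difference between the mice is read from it. Erg and Cdkn2a rose in both mice.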

How the results depend on the processing

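With mouse as replicate block, the paired analysis, the count of called genes among the 3 tested of the 9 stayed at 0. Of all tested genes 14.7% were called so. With the line pair as replicate block the count among the 3 was also 0. Among the other lists 15 genes were called with the mouse block and 13 without it. Permutation within mouse left 2 of 3 genes under 0.05, as without it. The block changed no call of the 3 tested genes. Against no change, 2 of the 3 tested genes were called (Pbx2 and Pbx3), against 48.5% of all tested genes, and 30 of the other lists. The count with a mouse-dependent change was 0 to 1 when single lines were left out, and 1 with RLE size factors, without a filter and with the CPM filter. Of 676 further values for 32 results under these alternatives, 641 kept their direction and side of the threshold or were uncalled throughout, 26 lost a call, 9 gained one and 0 called values reversed. Pbx3 was not among the genes tested with the CPM filter. With the lines of mouse 2 alone, Tgif2, Il7r, Hopx, Zfhx3 and Pcyox1l lost their calls (FDR = 0.0875 to 0.431). The HOXA genes and Meis1 had 10 counts at most in any line. They were tested only in the fits without a gene filter, and none was called there.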
